A study of Mus musculus with 6 samples.

Results

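The miR-34 and miR-449 assays on the PCR cards were examined in mouse aorta, across mice with and without an induced Dicer deletion directed to endothelial cells (ECs). They were chosen by name, as the rows called mmu-miR-34a, miR-34b-3p, miR-34b-5p, mmu-miR-34c, miR-449a, mmu-miR-449b or miR-449c (the prefix mmu, for mouse, is left out below), without passenger strands marked by an asterisk. Of these 7 names, 6 had a row, and miR-449b had a row on each of the 2 cards, which gave 7 of the 596 mouse miRNA assays. MiR-449c was not analysed here. Total RNA came from whole aortas of 6 female Apoe-/- mice, all carrying the VE-Cadherin-CreERT2 transgene and all injected with tamoxifen (2 mg per 20 g body weight) for 5 days. The 3 EC-Dicerflox mice were Dicer1flox/flox and the 3 EC-DicerWT mice, their littermates, were Dicer1WT/WT. The high-fat diet (21% crude fat, 0.15% cholesterol, 19.5% casein) began 1 week after tamoxifen at an age of 6 to 8 weeks and lasted 12 weeks. The VE-cadherin promoter is used to direct Cre to the endothelium, while the RNA came from all cells of the wall, and which cells lost Dicer was not measured here. Dicer mRNA is not measured by these cards, and the genotype could not be checked in the values.

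Dicer cuts the hairpin precursor of a miRNA into a short duplex, and 1 strand of it guides Argonaute to messenger RNAs that pair with the seed, bases 2 to 8 of the miRNA. MiR-34a and the miR-34b/c pair are known as direct transcriptional targets of the tumour suppressor p53 and act on mRNAs for cell cycle and survival proteins. In vessels miR-34a is known for its link to endothelial senescence through the deacetylase SIRT1. The miR-449 miRNAs carry the same seed, lie within the Cdc20b gene and are best known from multiciliated epithelia and testis, where miR-34b/c are also abundant.

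The mature sequences are shown because the seed is what joins the family and because near-identical members can be hard to tell apart by PCR. In the RefSeq sequences of GRCm38.p6, 4 of the 6 member names had a mature sequence, with an older name without an arm taken as the 5p arm, and the passenger strand miR-34c* (miR-34c-3p) is added for comparison. Capitals mark the seed.
miR-34a: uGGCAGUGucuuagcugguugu
miR-34b-5p: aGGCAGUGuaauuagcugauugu
miR-449a: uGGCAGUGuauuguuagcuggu
miR-34b-3p: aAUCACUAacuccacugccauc
miR-34c*: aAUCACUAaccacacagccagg
The first 3 share the seed GGCAGUG, which 4 of the 1679 mature mouse names in the RefSeq table carry (0.238%). The fourth is miR-449c-5p. MiR-34c and miR-449b had no mature sequence there as 5p arms, so the count leaves them out and their seeds were not read. MiR-34b-3p comes from the opposite arm of the miR-34b hairpin and has another seed, AUCACUA, which in that table occurs in it and in miR-34c-3p. The name family therefore held assays of different seeds. MiR-34a and miR-449a share their first 9 bases and have the same base at 15 of 22 positions counted from the 5′ end. MiR-34b-3p and miR-34c* share their first 10 bases and 17 of 22 positions.

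MiR-34a lies on chromosome 4 (chr4:150068473-150068494, plus strand), in no other annotated gene. MiR-34b-5p (chr9:51103610-51103632) and miR-34b-3p (chr9:51103574-51103595) lie on the minus strand of chromosome 9, and miR-34c* (chr9:51103044-51103065) lies on the same strand. The miR-34b and miR-34c hairpins are 451 bases apart, inside the spans of Btg4 and Hoatz. MiR-449a (chr13:113037549-113037570, plus strand) lies in the span of Cdc20b on chromosome 13, 35 bases from the miR-449b hairpin. The table given here holds gene spans only, so exons and introns were not told apart.

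MiR-34a was the family member with the earliest signal, and no member differed between EC-Dicerflox and EC-DicerWT aortas beyond the spread between mice. Values are raw cycle thresholds (Ct), where a lower Ct means more RNA, and 40 means that the assay was not detected. For comparisons, the level was the mean Ct of 5 control small RNAs in the sample minus the Ct of the miRNA, so that 1 unit is 1 PCR cycle or, if each cycle doubles the product, 1 log2 unit. Of the 7 assays, 6 were detected in all 6 samples and were tested. The miR-449b assay on card A was at 40 in all 6 samples and gave only a bound. Among the 439 miRNA assays detected in at least 3 samples, none had an adjusted limma P under 0.05 (0%) and 21 had an unadjusted limma P under 0.05 (4.78%), 17 of them lower (3.87%) and 4 higher (0.911%) in EC-Dicerflox aortas. Of the 6 tested members 0 passed either threshold, with unadjusted limma P values from 0.299 to 0.994 and an adjusted P of 0.994 for each. In every one of the 6 the values of the groups overlapped. Among all tested assays 9.79% had groups that did not overlap, and at that share 6 assays would hold few or none.

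By sign, 4 of the 6 members had a lower mean in EC-Dicerflox aortas and 2 had a higher one, beside 61.7% lower among all tested assays. The median change (EC-Dicerflox minus EC-DicerWT level, log2) was -0.15 for the members and -0.10 for all tested assays. In tissue RNA, fewer cells of a type and less RNA per cell cannot be told apart.

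**Figure D1:**
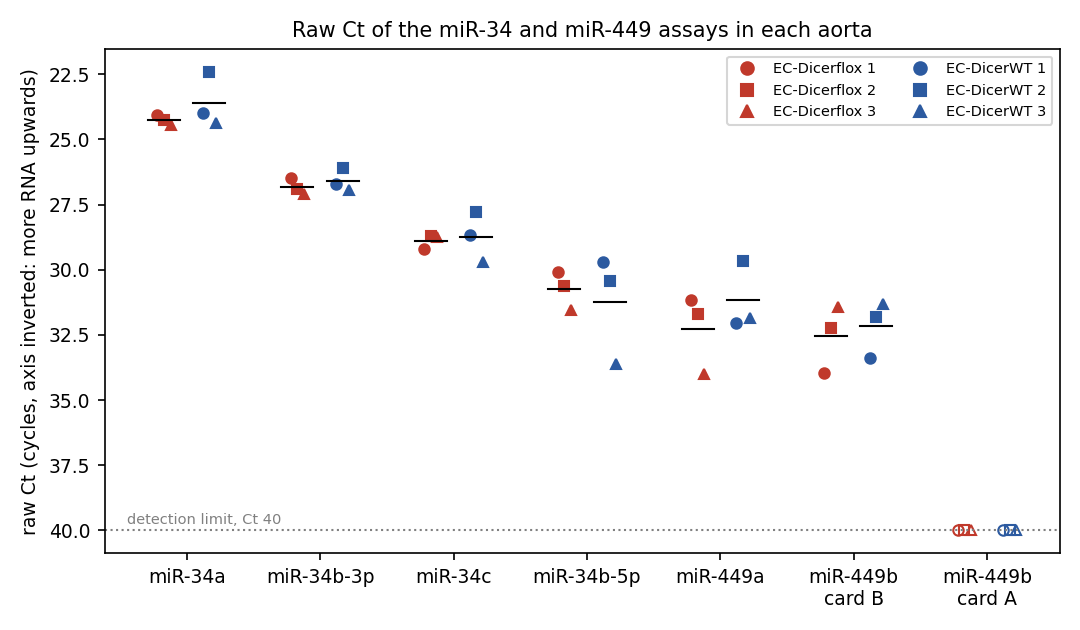
Raw Ct of each miR-34 and miR-449 assay (vertical axis in cycles, inverted) in the 3 EC-Dicerflox (red) and 3 EC-DicerWT (blue) aortas. Symbols mark the replicate, bars the group mean, and open symbols a Ct of 40. The miR-34a value of 22.415 in EC-DicerWT replicate 2 stands above the other 5, which lie between 23.981 and 24.454, and the card A assay of miR-449b is at the limit throughout.

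MiR-34a, the p53 target known from endothelial senescence, had a Ct of 24.069, 24.263 and 24.454 in EC-Dicerflox replicates 1 to 3, and of 23.981, 22.415 and 24.355 in EC-DicerWT replicates 1 to 3. A single sample, EC-DicerWT replicate 2, was high and the other 5 lay within less than 1 cycle. The level averaged -4.37 ± 0.27 (SD, n = 3) among EC-Dicerflox mice, against -3.86 ± 0.78 (SD, n = 3) among EC-DicerWT mice. This is a change of -0.52 ± 0.45 (SE). EC-Dicerflox aortas thus held 69.9% of the level in EC-DicerWT aortas, with a 95% interval from 31.7% to 154% (adjusted limma P of 0.994). Without EC-DicerWT replicate 2 it was -0.07 ± 0.29 (SE), with a 95% interval from -0.86 to 0.71. The size of the difference in miR-34a rested on that sample.

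From the miR-34b/c pair on chromosome 9, miR-34b-3p was the most even member. Its Ct was 26.471, 26.885 and 27.108 in EC-Dicerflox and 26.693, 26.112 and 26.944 in EC-DicerWT aortas, and its levels stayed within a range of 0.46. EC-DicerWT replicate 2 was again highest, by a small margin over EC-Dicerflox replicate 3. The change was -0.08 ± 0.23 (SE), with a 95% interval from 63.2% to 142% of the EC-DicerWT level, the narrowest of the 6 members (adjusted limma P of 0.994). The change was 0.02 without EC-DicerWT replicate 2.

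MiR-34c, from the neighbouring hairpin, had a Ct of 29.221, 28.694 and 28.736 in EC-Dicerflox and of 28.677, 27.798 and 29.705 in EC-DicerWT aortas. After normalisation EC-DicerWT replicate 2 and EC-Dicerflox replicate 3 were highest, and EC-Dicerflox replicate 1 was lowest. The levels ran from -9.78 to -8.38 among EC-Dicerflox mice and from -9.54 to -8.35 among EC-DicerWT mice. The group means were nearly the same, with a change of 0.004 ± 0.50 (SE) and a 95% interval from -1.27 to 1.28, which takes in a change of 1 log2 unit in either direction (adjusted limma P of 0.994). Its sign turned with the reference and with single mice, for example to -0.37 with U6 alone as reference and to 0.33 without EC-DicerWT replicate 2.

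MiR-34b-5p, the miR-34b arm that carries the family seed, was measured on card B. Its Ct was 30.105, 30.618 and 31.536 in EC-Dicerflox and 29.701, 30.445 and 33.621 in EC-DicerWT aortas. EC-DicerWT replicate 3 was lowest, with a level of -13.45 beside -11.18 to -10.13 in the other 5 samples, and EC-DicerWT replicate 1 was highest. Its change of 0.66 ± 0.90 (SE) had a 95% interval from -1.61 to 2.93 (adjusted limma P of 0.994). Without EC-DicerWT replicate 3 the change was -0.30, so the direction depended on that sample.

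MiR-449a, the Cdc20b member that begins like miR-34a, was late and uneven. Its Ct was 31.148, 31.683 and 34.005 in EC-Dicerflox and 32.033, 29.665 and 31.840 in EC-DicerWT aortas. The highest level was in EC-DicerWT replicate 2 and the lowest in EC-Dicerflox replicate 3, and the other 4 samples lay between them. The change of -0.94 ± 0.81 (SE) corresponded to 52.2% of the EC-DicerWT level, with a 95% interval from 12.5% to 218% (adjusted limma P of 0.994). Leaving out EC-DicerWT replicate 2 gave -0.32 and leaving out EC-Dicerflox replicate 3 gave -0.31, so the size, though not the sign, rested on these mice.

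MiR-449b gave different answers on its 2 assays. The assay on card A had a Ct of 40 in every sample. On card B the Ct was 33.962, 32.245 and 31.415 in EC-Dicerflox and 33.369, 31.798 and 31.307 in EC-DicerWT aortas. The third replicates of both groups were earliest and the first replicates were latest, so that the samples of one number resembled each other more than the samples of one group did. The change was -0.22 ± 1.12 (SE), with a 95% interval from -3.06 to 2.62 (adjusted limma P of 0.994). Leaving out EC-Dicerflox replicate 1 gave 0.71 and leaving out EC-DicerWT replicate 3 gave 0.42, so the sign rested on single mice. Which sequence each assay detects is not given in the sources used here, and the reason for the difference between the cards was not tested.

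**Figure D2:**
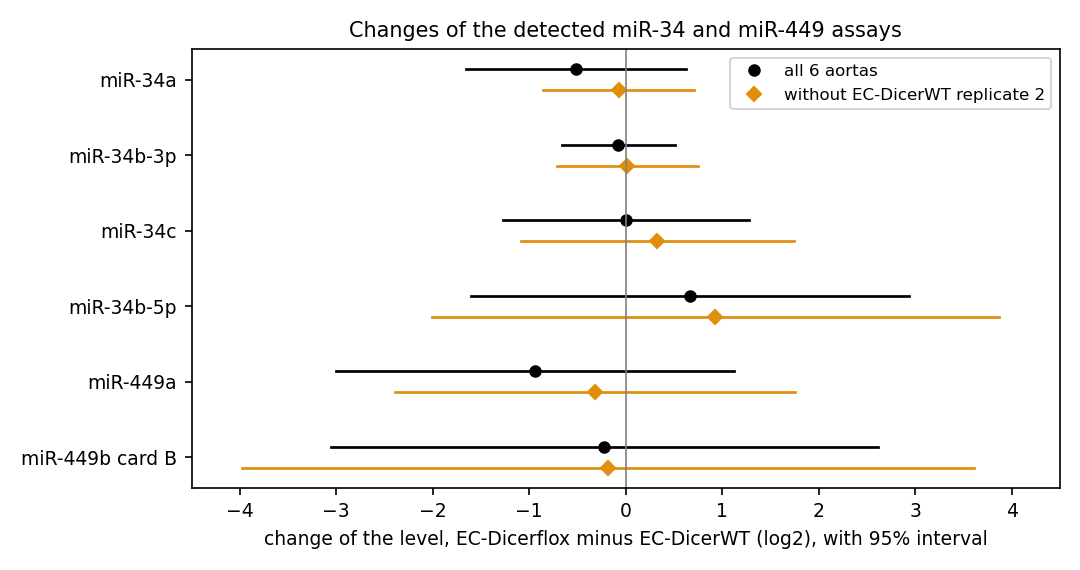
Change of the level of the 6 detected assays, EC-Dicerflox minus EC-DicerWT (horizontal axis, log2), with 95% intervals from limma for all 6 aortas (black) and without EC-DicerWT replicate 2 (orange). All intervals include 0, and without that sample the miR-34a estimate is -0.07 instead of -0.52.

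Ct values of different assays carry each assay's own efficiency, so their order is a description of these assays and not of copy numbers. The order from early to late was miR-34a, miR-34b-3p, miR-34c, miR-34b-5p, miR-449a and miR-449b on card B. The first 3 steps held in 6 of 6 samples, with mean differences of 2.78, 2.10 and 2.20 cycles. The last 2 steps held in 4 of 6 samples, with mean differences of 0.72 ± 1.70 and 0.62 ± 1.96 cycles (SD over 6 samples), so miR-34b-5p, miR-449a and miR-449b were not separated beyond their spread.

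Differences between members on 1 card of a sample need no control RNA, whereas between cards A and B a difference between the cards themselves does not cancel. The Ct of miR-34c minus that of miR-34a was 5.152, 4.431 and 4.282 cycles in EC-Dicerflox and 4.696, 5.383 and 5.35 cycles in EC-DicerWT aortas. MiR-34c was thus somewhat closer to miR-34a in EC-Dicerflox replicates 2 and 3 than in the other samples, with overlap between the groups. The gap averaged 4.62 ± 0.47 (SD, n = 3) without and 5.14 ± 0.39 (SD, n = 3) with endothelial Dicer, and the difference of -0.52 had an exact two-sided permutation P of 0.2, where 0.1 is the smallest P that 3 against 3 samples allow. Between the arms of the miR-34b hairpin, miR-34b-5p (card B) was later than miR-34b-3p (card A) by 3.008 to 6.677 cycles, and EC-DicerWT replicate 3 gave the largest gap.

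Other rows of the same hairpins were read beside the members. The passenger strand miR-34c* (card B), which shares its seed with miR-34b-3p, had a Ct of 27.916, 27.939 and 28.812 in EC-Dicerflox and 27.521, 27.05 and 28.671 in EC-DicerWT aortas. It was earlier than miR-34c (card A) in 5 of 6 samples, by up to 1.305 cycles, and EC-DicerWT replicate 2 was again highest. Its change was -0.31 ± 0.31 (SE) with an adjusted limma P of 0.994. It followed miR-34b-3p (card A), its partner in seed, by 0.828 to 1.727 cycles. A further row named miR-34b without an arm, noted after its values were seen, had a Ct of 40, 40 and 34.720 in EC-Dicerflox and 36.637, 39.840 and 37.331 in EC-DicerWT aortas, and was too close to the limit for a comparison.

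EC-DicerWT replicate 2 was the sample in which the family stood highest. It held the highest level of 4 of the 6 detected members (miR-34a, miR-34b-3p, miR-34c and miR-449a), whereas over the 394 miRNA assays detected in all samples it was highest in 12.9%. Relative to the mean of the 6 samples, its level was 1.15 higher for miR-34a, 0.23 for miR-34b-3p, 0.64 for miR-34c and 1.70 for miR-449a. The median deviation over all 394 assays was 0.02 in this sample, so its profile as a whole was not raised.

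MiRNAs known as markers of epithelium were high in the same sample. The epithelial list held the miR-200 family (miR-200a, miR-200b, miR-200c, miR-141 and miR-429) and miR-205, and all 6 were highest in EC-DicerWT replicate 2. The deviation there was 1.71 for miR-200a and 2.78 for miR-205. The summed level of the list was -3.91, -4.99 and -4.05 in EC-Dicerflox and -4.25, -2.33 and -4.06 in EC-DicerWT aortas. None of the 6 markers was at the limit in any sample. The leukocyte markers miR-142-3p, miR-142-5p and miR-155 were also highest there, with deviations from the mean of the 6 samples of 0.77, 0.70 and 0.93, while miR-223 and miR-150 were not. The summed leukocyte level ranged from 0.76 to 1.57 in EC-Dicerflox and from 1.04 to 1.74 in EC-DicerWT aortas. The part of these cell types in the miR-34 values was not tested.

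**Figure D3:**
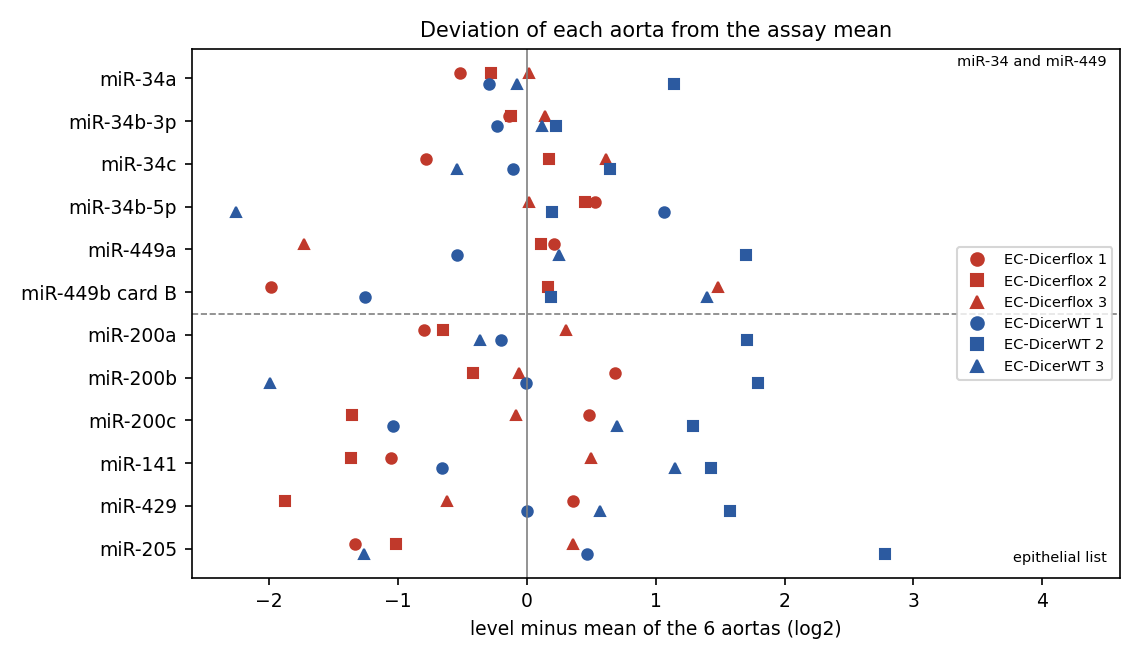
Level of each aorta minus the mean of the 6 aortas (horizontal axis, log2) for the 6 detected miR-34 and miR-449 assays (above the dashed line) and the 6 epithelial markers (below it). Colours mark the group and symbols the replicate. EC-DicerWT replicate 2 (blue squares) is rightmost in 4 of the 6 family assays and in all 6 epithelial markers.

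The labelled tissue was read against markers. The smooth muscle miR-145 had a Ct between 14.547 and 14.803 and miR-143 between 15.807 and 16.471, among the earliest signals. The endothelial miR-126-3p lay between 17.246 and 17.76 and miR-126-5p between 20.394 and 21.268. The change was -0.13 ± 0.32 (SE) for miR-126-3p and 0.25 ± 0.35 (SE) for miR-126-5p, each with an adjusted limma P of 0.994. Of the list of neural markers, miR-9 was present (23.697 to 24.232) and miR-124 was late or at 40. The liver miR-122 ranged from 22.349 to 26.7 in Ct over the samples, and EC-Dicerflox replicate 1 was highest. The change was 0.05 for the erythrocyte marker miR-451 and 0.02 for miR-486. Of the 6 striated muscle assays 4 were tested, 2 lower and 2 higher in mean. The change was -0.15 for miR-1, 0.07 for miR-133a and 0.23 for miR-133b. For miR-208 it was -1.65, with an adjusted limma P of 0.976, and its unadjusted P was under 0.05.

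Spread between mice differed widely within the family. MiR-34a had a SD within groups of 0.58, against a median of 0.32 among the 38 other assays with a mean Ct within 1 cycle of it, and 7 of these had a larger SD. MiR-34b-3p had a SD of 0.20 against a median of 0.46 among 62 such assays, of which 55 had a larger SD. MiR-34c had a SD of 0.66 (median 0.60), with 34 of 76 such assays larger. Among the late members, miR-34b-5p had a SD of 1.23 (median 0.90), with 17 of 51 larger, and miR-449b on card B of 1.55 (median 1.36), with 14 of 37 larger. MiR-449a was near the middle, with a SD of 1.12 (median 1.20) and 23 of 44 larger.

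**Figure D4:**
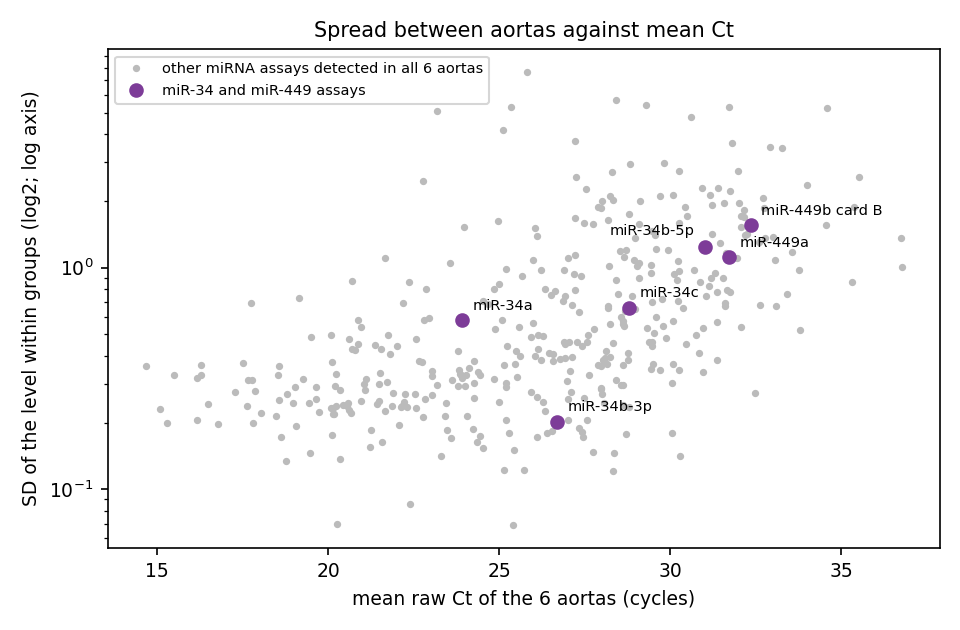
SD of the level within groups (vertical log axis, log2 units) against mean Ct (horizontal axis, cycles) for the 394 miRNA assays detected in all 6 aortas, with the 6 family members in purple. MiR-34a lies above and miR-34b-3p below most assays of like Ct.

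The members did not move as 1 unit across the samples. Over the 6 samples, in each of which the members share the control RNAs, the Pearson correlations of the 15 pairs of members ranged from -0.67 to 0.78 with a median of 0.26. The closest pair over all 6 samples was miR-34a with miR-34b-3p (0.78, and 0.83 without EC-DicerWT replicate 2). Without that sample the order of the pairs was another, since miR-449b on card B correlated with miR-34a at 0.95 (0.36 with it) and with miR-34b-3p at 0.88. MiR-34a and miR-449a, alike in their first 9 bases, correlated at 0.58, and at -0.59 without EC-DicerWT replicate 2, so that relation rested on this sample. The 2 arms of miR-34b were at -0.55.

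The assays most like each member were sought among the 393 others detected in all samples by Pearson's r over the 6 samples, as a description. For miR-34a they were miR-128a (0.998), miR-200a (0.97) and miR-199a-5p (0.96), and without EC-DicerWT replicate 2 these values were 0.98, 0.81 and 0.76. MiR-34b-3p was most like miR-92a (0.95), miR-141 (0.90) and miR-181c (0.87), and miR-34c most like miR-18b (0.89), the lymphocyte miRNA miR-150 (0.88) and miR-201 (0.85). MiR-34b-5p was most like miR-330 on card A (0.96), miR-1894-3p (0.95) and miR-1186 (0.94). For miR-449a the values were lower, with miR-291-5p (0.85), miR-93 (0.84) and miR-20b (0.83). Without EC-DicerWT replicate 2 these miR-449a values were 0.78, 0.66 and 0.59. For miR-449b on card B the values over the 6 samples were 0.96 with miR-96, 0.96 with miR-496 and 0.93 with miR-30b. The SD within groups differed widely among these partner assays, from 0.21 for miR-93 to 5.71 for miR-291-5p. It was 5.23 for miR-18b, whose mean Ct was 34.6. A correlation with so uneven an assay can rest on few samples.

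Other miRNAs linked to p53 were read from a list of 10, all detected in all samples. MiR-192, miR-194, miR-215, miR-107, miR-200c and miR-141 are known for transcription raised by p53, and miR-143, miR-145, miR-15a and miR-16 for processing linked to it. In EC-Dicerflox aortas 7 of the 10 had a lower mean, 3 had a higher one and 0 passed the unadjusted or the adjusted threshold. Among all tested assays 61.7% were lower, 4.78% passed the unadjusted threshold and 0% the adjusted one, so the list was near these shares. Their median change was -0.10, the same to 2 decimals as the -0.10 of all tested assays, and without EC-DicerWT replicate 2 there were 6 lower, with a median of -0.13. The change was -0.57 ± 0.39 (SE) for miR-107, hosted by a gene of coenzyme A synthesis. For the miR-200 family it was -1.28 ± 0.78 (SE) in miR-141 and -0.64 ± 0.79 (SE) in miR-200c. In miR-194, which lies in clusters with miR-192 and miR-215, the change was -0.06 ± 0.21 (SE), beside 0.21 ± 0.26 (SE) in miR-192 and 0.01 ± 0.34 (SE) in miR-215. For the smooth muscle pair it was -0.10 ± 0.23 (SE) in miR-143 and 0.21 ± 0.31 (SE) in miR-145, and for the cell cycle miRNAs it was -0.11 ± 0.25 (SE) in miR-15a and -0.26 ± 0.29 (SE) in miR-16. All 10 had an adjusted limma P of 0.994.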

How the data were processed

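The authors reverse transcribed and preamplified total RNA with rodent primer pools, ran TaqMan array cards and deposited raw Ct values without normalisation, with 40 as the limit. Baseline and signal level settings are not given in the sources used here. The table held 608 rows, of which 596 were mouse miRNA assays (335 of card A, 261 of card B, told apart by how the assay number is written). Groups and replicate numbers came from the sample labels. No 2 samples had identical values. Per sample 421 to 454 miRNAs were detected, and the reference Ct lay between 19.4 and 20.4. Ct values have no read depth, and 3 biological replicates per group limit the precision.

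Levels were the average of Y1, U87, U6, snoRNA202 and snoRNA135 (cards averaged) minus the Ct of the assay. Assays with a Ct under 40 in at least 3 of 6 samples were fitted in R 4.3.3 with limma 3.58.1 (lmFit, eBayes, two-sided, no block), undetected wells kept at 40, and P values were adjusted by Benjamini-Hochberg over all 439. Permutation tests used SciPy 1.17.1. The fit was tested on simulated data. Summed levels of a list were log2 of the sum of the linear levels.

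All members of the name rule were named, with the 3 most correlated assays of each and the listed p53-linked and marker miRNAs. Members, lists and tests were chosen with earlier results of these data known. Alternatives covered the reference, detection filter and limit, variance model, replicate block, replicate 3 and each sample left out.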

Additional observations from a re-analysis of the deposited data

Results flagged for a closer look

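An assay of a plant miRNA, which serves as a negative control and entered no comparison, had a Ct of 39.776 on card A in EC-Dicerflox replicate 1. It was at 40 in the other samples and on card B. The assay named miR-34b had a later Ct, 39.840, in EC-DicerWT replicate 2.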

How the results depend on the processing

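In all 20 alternatives miR-34a (-0.90 to -0.07) and miR-449a (-1.44 to -0.31) stayed lower in EC-Dicerflox aortas. The detection filter, limit, undetected wells, variance model, replicate block and third-replicate term left both estimates at their main values (-0.52 and -0.94). Their sign could therefore move only with another reference, replicates 1 and 2 alone or a sample left out. No member reached an unadjusted or adjusted limma P under 0.05 in any of the 20 (smallest 0.162 unadjusted and 0.827 adjusted). MiR-34c turned to -0.37 with only U6 as reference, to -0.16 with snoRNA135 beside it and to -0.0051 with a reference per card. It was reversed in replicates 1 and 2 alone (-0.57), and miR-34b-5p did so in replicates 1 and 2 alone (-0.14). With each sample left out, changes ranged from -0.79 to -0.07 for miR-34a, from -0.21 to 0.017 for miR-34b-3p, from -0.30 to 1.36 for miR-34b-5p, from -0.30 to 0.40 for miR-34c, from -1.44 to -0.31 for miR-449a and from -1.02 to 0.71 for miR-449b on card B. Sign changes were 0.017 for miR-34b-3p without EC-DicerWT replicate 2 and -0.30 for miR-34b-5p without EC-DicerWT replicate 3. For miR-34c they were -0.08 and -0.30 without EC-Dicerflox replicates 2 and 3, and -0.05 and -0.27 without EC-DicerWT replicates 1 and 3. For miR-449b on card B, leaving out EC-Dicerflox replicate 1 gave 0.71 and leaving out EC-DicerWT replicate 3 gave 0.42. The cause was not tested. The group difference (EC-Dicerflox minus EC-DicerWT) in the Ct gap of miR-34c minus miR-34a ranged from -0.79 to -0.25 cycles over its 9 alternatives.

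Assays with an unadjusted limma P under 0.05 numbered 21, 11 with U6 alone, and 8 to 22 with each sample left out, of which 8 came with EC-Dicerflox replicate 2 left out, 13 with EC-DicerWT replicate 1 and 11 with EC-DicerWT replicate 3 left out. With a term for the third replicates and in replicates 1 and 2 alone, 1 assay, no member, had an adjusted limma P under 0.05. With the replicate block 17 passed unadjusted, beside 21 without it, and 0 adjusted. In that fit miR-34a changed by -0.52 (adjusted limma P of 0.882), and no member passed either threshold. Deviations of same-numbered samples correlated at 0.15, -0.06 and 0.31. The samples were treated as unpaired because the methods name no block. Whether same-numbered samples share a source of variation was not tested. For miR-449b on card B the SE was 0.28 with the block and 1.12 without it. The members' lower count was 3 to 5 with other references or each sample left out, an alternative chosen after seeing the data. Late Ct values, with the spread they bring, limit miR-34b-5p, miR-449a and miR-449b.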
